A study of Mus musculus with 10 samples.

Results

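The alpha-defensins described here are 7 paralogous mouse genes, Defa24, Gm15284, Defa17, Defa5, Defa3, Defa-ps7 and Gm15299, of 35006 gene rows counted by RNA sequencing in 5 sorted populations of small-intestinal crypt cells. They were selected on measured values of these same libraries: they were known to be high in the libraries labelled P2, and Gm15299 also from a difference between P5 and P4. Values involving P2 are therefore given as a description without a test. The family list used here has 41 rows in the files, so 34 alpha-defensin rows are not members, and some of those are more abundant than most members.

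The cells came from EF1a-OSCAR mice (strain C57BL6/J in the labels, age not given in the sources used here). In these mice every population carries the same knock-in at Rosa26, made in E14.1 embryonic stem cells. The EF1a promoter drives OSCAR, a green-to-red fluorescence ratio (VeN90 over mCherry) that rises when CDK9 phosphorylates the reporter less, and a stop cassette had been deleted with Vasa-Cre. Live EpCAM+ cells were sorted, 10000 per library, with 2 libraries per population and 10 in all. P1 was OSCAR low and EF1a low, P2 OSCAR high and EF1a low, P3 OSCAR low and EF1a high, P4 OSCAR medium and EF1a low, and P5 OSCAR medium and EF1a high.

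Alpha-defensins, also called cryptdins in the mouse, are small cationic antimicrobial peptides with a conserved set of cysteines. Paneth cells at the crypt base make them as inactive precursors, store them in granules with lysozyme, and release them into the crypt lumen. In the mouse the metalloprotease matrilysin, encoded by Mmp7, cuts the precursor to the active peptide. The genes lie in a cluster of near-identical copies, so a short read often matches several of them.

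Without rRNA genes the libraries held 3800294 to 6482234 counts. Mitochondrially encoded genes took 58.6% and 35.5% of the counts in P3 and 1.02% to 4.99% elsewhere. Epcam was detected in every library, at 461 to 1551 CPM (counts per 1000000 counts of the library). The labels place the secretory transcripts in the libraries titled P2, whereas the study's own figures place them in P3. No library was renamed, and each direction drawn from P2 or P3 rests on the deposited label. In these bulk samples a smaller number of Paneth cells and less defensin RNA per cell cannot be told apart.

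Because the reading of each member depends on how far its sequence is its own, the last 105 coding bases of the 6 protein-coding members are shown first, taken from the GENCODE transcripts of NCBIM37 (mm9). These bases include the stop codon, and capitals mark the 6 in-frame cysteine codons. The genes are named with their gene spans, all on chromosome 8.
Defa24 (chr8:22844966-22845943, plus strand): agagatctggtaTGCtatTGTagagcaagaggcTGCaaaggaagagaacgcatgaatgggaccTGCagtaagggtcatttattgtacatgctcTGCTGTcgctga
Gm15284 (chr8:22274321-22275277, plus strand): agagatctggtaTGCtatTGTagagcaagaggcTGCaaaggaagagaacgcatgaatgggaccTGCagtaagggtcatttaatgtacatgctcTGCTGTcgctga
Defa17 (chr8:22766252-22767207, plus strand): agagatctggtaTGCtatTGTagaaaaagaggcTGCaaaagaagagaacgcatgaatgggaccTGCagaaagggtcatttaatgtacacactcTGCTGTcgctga
Defa3 (chr8:22427088-22428056, plus strand): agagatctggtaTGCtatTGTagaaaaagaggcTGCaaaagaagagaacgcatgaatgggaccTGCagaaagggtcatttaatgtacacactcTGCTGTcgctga
Gm15299 (chr8:22455225-22456160, plus strand): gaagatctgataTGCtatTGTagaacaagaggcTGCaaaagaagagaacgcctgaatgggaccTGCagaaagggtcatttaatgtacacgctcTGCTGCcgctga
Defa5 (chr8:22437118-22438054, plus strand): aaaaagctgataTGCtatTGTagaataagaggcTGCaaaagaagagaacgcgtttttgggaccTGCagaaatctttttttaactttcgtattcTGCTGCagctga

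The segments of Defa3 and Defa17 had 0 differences. Those of Defa24 and Gm15284 differed at 1 of 105 bases, T82A, counted from 1 at the 5′ end of the segment with the Defa24 base first. Gm15299 differed from Defa3 at 7 bases and from Defa24 at 10. Defa5 stood farthest from the other members, with 21 to 26 differences, and its segment was identical to those of 3 alpha-defensin genes that are not members, Gm10104, Gm14850 and Gm15315. The remaining member, Defa-ps7, is annotated as a pseudogene (chr8:22371006-22371912, minus strand) and has no coding sequence to show. In the RefSeq gene table, where coordinates are of another build and were not used, Gm15284 is named Defa30 and Gm15299 is named Defa27.

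The deposited counts leave out reads that aligned to more than 1 place, so the share of a transcript that a read can place sets how much of it is counted. Of the 75-base windows of its transcripts, 93.3% were found at 1 place only in the genome and the family's transcripts for Defa24, 84% for Defa-ps7, 79.3% for Gm15284 and 71.2% for Gm15299. The corresponding shares were 8.67% for Defa17, 8.33% for Defa3 and 2.32% for Defa5. Defa3 and Defa17 had 295 windows in common, and Defa5 shared 232 with Gm15315. Counts of the 3 genes with few unique windows are thus taken from a small part of each transcript, 28 windows for Defa17, 28 for Defa3 and 7 for Defa5. Reads with several alignments made up, genome-wide, 12.5% to 17% of gene counts and such reads together in P1, P4 and P5, 30% and 31.5% in P2, and 35% and 42.8% in P3. Their part in the values below was not tested.

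**Figure D1:**
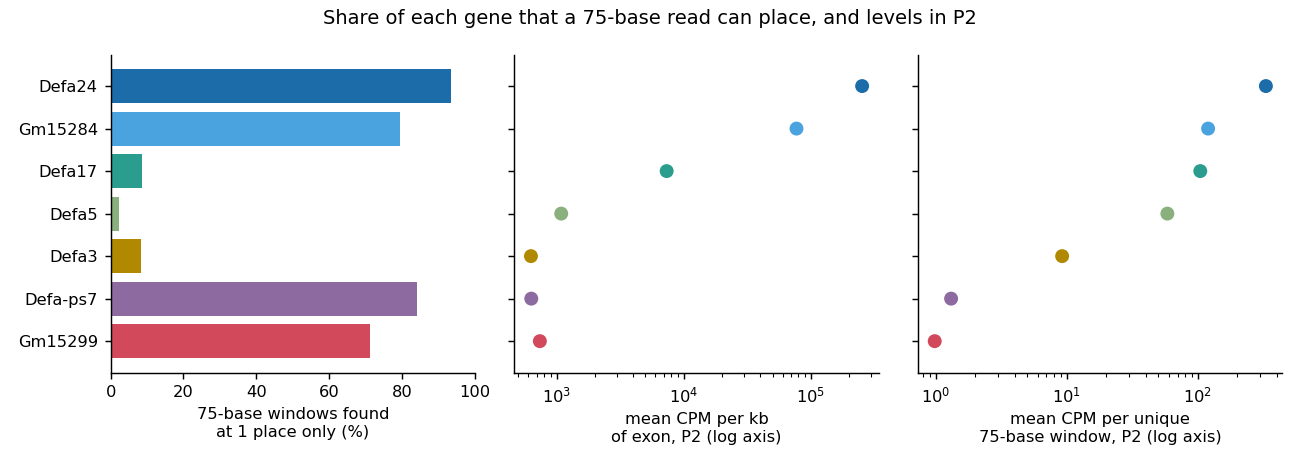
The left panel gives, for each member, the percentage of its 75-base transcript windows found at 1 place only. The middle and right panels give the mean level in P2 as CPM per kilobase of exon and per unique window, both on log axes. Defa24 is highest on both scales, and Defa17, at 8.67% unique windows, lies far closer to Gm15284 per unique window than per kilobase.

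Summed over the 7 members, the level spanned 538-fold across the libraries. The sum took 16% and 12.1% of all counts in the P2 libraries (replicates 1 and 2). It took 0.719% and 2.45% in P1, 0.622% and 0.159% in P5, 0.0748% and 0.079% in P3, and 0.0298% and 0.0488% in P4. On this scale no population overlapped the next in this order. Mitochondrial counts take a large share of P3 here, and the step from P5 to P3 depends on the scale, as given below. Replicates differed most in P5, where replicate 1 was 3.91 times replicate 2, and in P1, where replicate 2 was 3.41 times replicate 1. Lyz1, the Paneth cell lysozyme, differed between the same replicates 5.07 times in P5 and 3.13 times in P1, in the same directions.

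Defa24, which encodes an abundant cryptdin, carried most of the sum, between 72% and 79.3% of the members' counts in every library. It had 580151 and 579010 counts in P2, 34074 and 117328 in P1, 29516 and 7269 in P5, 2184 and 2916 in P3, and 1266 and 2488 in P4. In P2 it ranked 2nd of all genes by CPM. In CPM the libraries did not overlap between neighbouring populations in that order. The step from P5 to P3 depends on this scale. The fitted log2 difference of P3 minus P5, which scales the libraries differently, was -1.20 ± 0.93 (SE), and 0.21 without P5 replicate 1.

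Gm15284, its nearest relative by sequence, was the second member at 165945 and 170012 counts in P2. It had 9385 and 32334 in P1, 9231 and 2513 in P5, 588 and 625 in P3, and 289 and 584 in P4. Its order of populations was that of Defa24, again with no overlap between neighbours in CPM, and it ranked 4th of all genes in P2.

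Defa17 had 14630 and 17650 counts in P2, 985 and 3729 in P1, 867 and 260 in P5, 54 and 121 in P3, and 45 and 73 in P4. Defa3, whose segment is the same, had 881 and 2108 in P2, 47 and 426 in P1, 48 and 29 in P5, 4 and 8 in P3, and 1 and 7 in P4. The libraries of P3 and P4 overlapped for Defa3 and not for Defa17. With the same number of unique windows, Defa17 was counted above Defa3 in all 10 libraries.

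Defa5 had 2206 and 2271 counts in P2, 158 and 505 in P1, 89 and 22 in P5, 2 and 9 in P3, and 7 and 12 in P4. The annotated pseudogene Defa-ps7 had 501 and 734 in P2, 29 and 131 in P1, 26 and 8 in P5, 0 and 2 in P4, and none in either P3 library. A count of 0 allows up to 3 counts, which is 0.463 to 0.789 CPM depending on the library, for counting error only. For both genes P3 and P4 overlapped.

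Gm15299 behaved unlike the other 6. In replicate 1 it had 2630 counts in P2, 167 in P1, 164 in P5, 11 in P3 and 3 in P4. In replicate 2 it had 28, 1, 1, 0 and 0 in the same populations. Each population overlapped its neighbour, since replicate 2 of P2, at 4.41 CPM, lay below replicate 1 of P1 and P5, at 26.8 and 25.5.

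**Figure D2:**
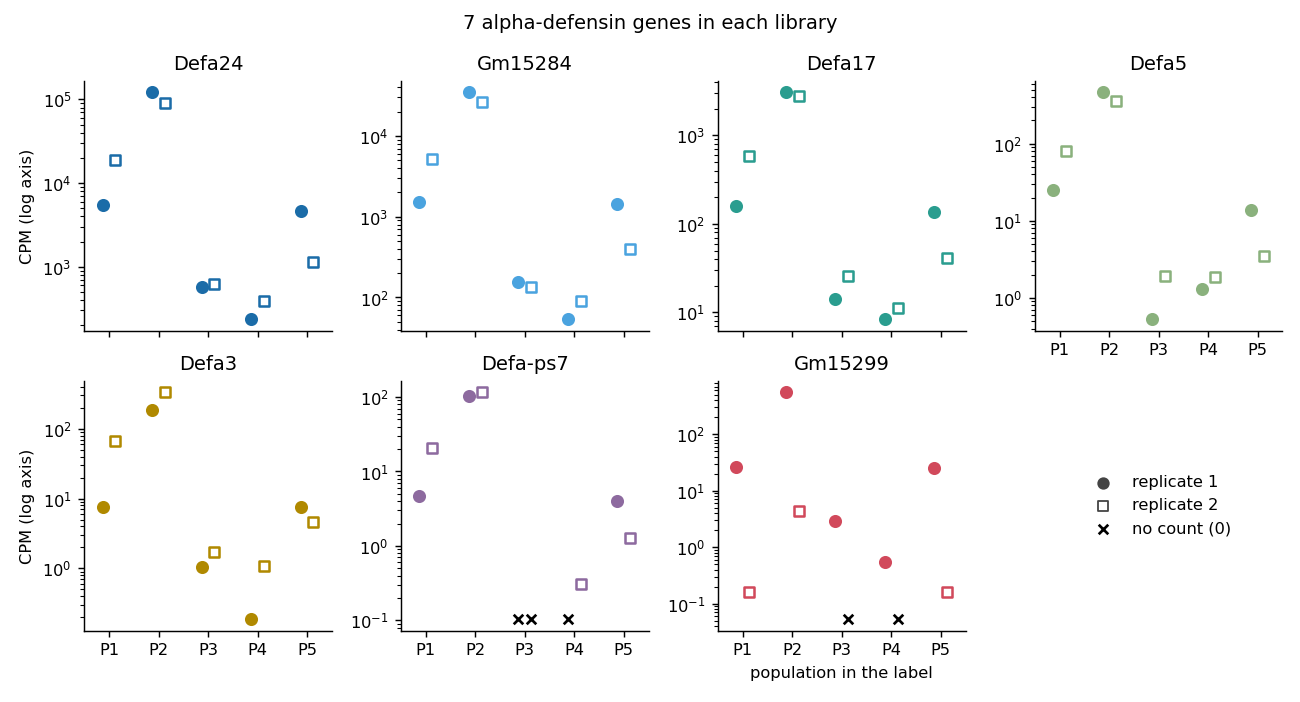
Each panel shows 1 member, with CPM on a log axis, the 5 populations on the horizontal axis, filled circles for replicate 1, open squares for replicate 2 and crosses for libraries without a count. The other 6 panels share the order P2, P1, P5 and then P3 and P4, while in the Gm15299 panel replicate 1 lies above replicate 2 in every population.

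Both P2 libraries were above both P1 libraries for 6 of the 7 members, beside 28.2% of all 13706 genes tested. Both P1 libraries were above both P5 libraries for 6 of 7, beside 22.1% of genes. Both P5 libraries exceeded both P4 libraries for 6 of 7, beside 8.6%, and both P3 libraries exceeded both P4 libraries for 3 of 7, beside 1.23%. Between P5 and P3 the count was also 6 of 7, but 73.4% of all genes did the same on this scale, where mitochondrial counts take a large share of P3. Gm15299 was the exception in all of these, joined by Defa3, Defa5 and Defa-ps7 between P3 and P4. The P2 comparison is the one that chose the members.

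As a description, the fitted log2 fold change of P2 over P1 lay between 3.22 ± 0.81 (SE, n = 2 and 2) for Defa3 and 3.66 ± 0.90 for Gm15284 among the 6 members other than Gm15299, which stood at 4.82 ± 2.23. Over P5 these 6 differed by 6.05 to 6.56 on the log2 scale. Over P4 the fitted differences were 9.12 to 10.26. Over P3, Defa-ps7 was at least 313-fold higher in P2, taking 3 counts over both P3 libraries as the limit, and Defa24 differed by 7.40 ± 1.22 on the log2 scale.

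Levels between members can be compared only per length. In P2 the mean was 253517 CPM per kilobase of exon for Defa24, 77210 for Gm15284, 7351 for Defa17, 1089 for Defa5, 739 for Gm15299, 633 for Defa-ps7 and 629 for Defa3. Per unique 75-base window it was 330 for Defa24, 120 for Gm15284, 104 for Defa17, 58.5 for Defa5, 9.21 for Defa3, 1.31 for Defa-ps7 and 0.983 for Gm15299. Defa24 and Gm15284 led on both scales, and Defa17 and Defa5 came closer to them on the second, which corrects for windows that cannot be placed.

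The study's other 4 populations form a square of OSCAR low or medium by EF1a low or high, and differences among them do not contain the P2 means. The P2 libraries still entered the filter, the scaling and the estimate of the spread, and the difference between P5 and P4 was among those that chose Gm15299, so Gm15299 has no test where that difference is used. For these contrasts, edgeR's quasi-likelihood test was run over all genes, with Benjamini-Hochberg adjustment and a call at an adjusted p under 0.01. All 7 members passed the filter on low counts, and all 7 still passed it when the P2 libraries were left out. The members share reads and libraries, so their calls are not independent of each other. Each p-value sets a difference against the spread between these libraries, estimated in the main fits without a term for the replicate number.

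Between P1 and P4, OSCAR low against medium at low EF1a, 6 of 7 members were higher in P1, beside 23.4% of all genes called in either direction. The median log2 fold change was 6.23 over the members and -0.06 over all genes. Defa24 differed by 5.98 ± 1.14 (SE), 63.1-fold, with an adjusted p of 0.00376 from edgeR. Gm15284 differed by 6.23 ± 1.02, with an edgeR adjusted p of 0.00211. Defa17, Defa5, Defa3 and Defa-ps7 differed by 5.72 to 6.70, with edgeR adjusted p-values between 0.00126 and 0.00285.

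Gm15299 did not pass, at 6.26 ± 3.33 and an edgeR adjusted p of 0.156. Its 168 counts in P1 and 3 in P4 came almost wholly from replicate 1. The calls depended on both P4 libraries: without P4 replicate 1 or without P4 replicate 2 edgeR called 0 members and 0 of 14458 or 14498 genes, with 5612 and 5301 genes and 6 members at an unadjusted p under 0.05. Without P1 replicate 2 fewer members and fewer genes over all were called, and Defa24 stood at 4.80 (27.9-fold).

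The size of the difference between P1 and P4 also moved with single libraries. For the 6 called members it was 4.10 to 5.22 on the log2 scale without P1 replicate 2 and 6.33 to 7.41 without P1 replicate 1, where Defa24 stood at 6.61 (97.7-fold). Defa3 ranged from 5.78 without P4 replicate 1 to 8.10 without P4 replicate 2, and Defa-ps7, with 0 and 2 counts in P4, stood at 5.93 without P4 replicate 1.

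Between P1 and P3, EF1a low against high at low OSCAR, 3 of 7 members were called higher in P1, beside 15.6% of all genes. The called members were Defa17 at 3.83 ± 0.74 (edgeR adjusted p = 0.00546), Defa5 at 5.03 ± 0.87 (0.0035) and Defa-ps7, which was at least 36-fold higher (0.00859). Defa24 differed by 3.81 ± 1.03, Gm15284 by 3.96 ± 0.92 and Defa3 by 4.37 ± 1.08, with edgeR adjusted p-values of 0.0204, 0.0112 and 0.0141 that missed the threshold. DESeq2 called all 6, beside 3582 of 12908 genes. The median over the 7 was 3.96 with Defa-ps7 at its bound, against 0.03 over all genes. The fold of Defa17 was 14.3 with all libraries, 5.92 without P1 replicate 2 and 22.7 without P1 replicate 1. On the log2 scale Defa5 stood at 3.96 and 5.65 without the same libraries and at 5.66 without P3 replicate 2. Without the P2 libraries Defa-ps7 was not called (edgeR adjusted p = 0.0156). With the replicate number as a block 5 members were called, beside 2597 of 13706 genes. The edgeR calls of the members depended on each P1 and each P3 library, and a fit without 1 of them has only 1 library in that population. Other genes were still called without P1 replicate 2 or without either P3 library, and none without P1 replicate 1. Defa17 stood at 3.87 on the log2 scale without P3 replicate 1 and at 3.76 without P3 replicate 2.

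Between P5 and P4, EF1a high against low at medium OSCAR, edgeR called none of the members and 0% of the genes tested. At an unadjusted p under 0.05 stood 6 of the members and 2.55% of all genes, and DESeq2 called 3 members and 30 genes. Both P5 libraries were above both P4 libraries for these 6. Defa17 differed by 3.31 ± 0.73, with an edgeR adjusted p of 0.623, and Gm15284 by 3.82 ± 0.91, with 0.716. Defa24 differed by 3.37 ± 1.01, Defa5 by 2.57 ± 0.81, Defa3 by 3.24 ± 1.20 and Defa-ps7 by 3.89 ± 1.34, each with an edgeR adjusted p of 1. The median over the members was 3.37, beside 0.01 over all genes. The fitted value of Gm15299 was 5.66 ± 3.37, given without a test because this contrast was among those that chose it.

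Between P3 and P5, OSCAR low against medium at high EF1a, edgeR called none of the members and 0% of genes, with 1 member, Defa-ps7, and 11.6% of genes at an unadjusted p under 0.05. DESeq2 called 0 members and 40 genes. The fitted differences were negative, lower in P3, for all 7, with a median of -1.56. Defa24 stood at -1.20 ± 0.93 and Defa17 at -1.19 ± 0.68, with edgeR adjusted p-values of 0.62 and 0.516. Defa-ps7, with 34 counts in P5 and none in P3, was at least 7.5-fold higher in P5 with an edgeR adjusted p of 0.42. The difference of the summed level depended on the scale, at 2.34 on the log2 scale of CPM for P5 over P3 and 1.28 with TMM scaling.

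**Figure D3:**
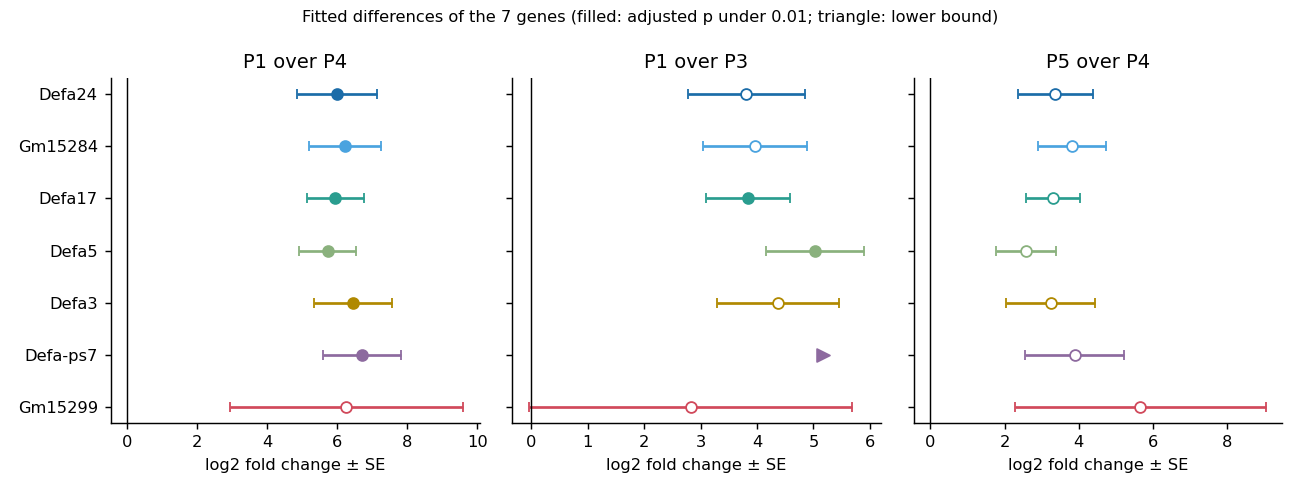
Fitted log2 fold changes with their standard errors for the 7 members in 3 comparisons, from 2 libraries per population. Filled points passed an adjusted p under 0.01 and the triangle is the lower bound for Defa-ps7 against P3, where it had no count. All points lie above 0, with 6 filled for P1 over P4, 2 filled points and the bound called for P1 over P3, and none filled for P5 over P4.

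The fitted difference between the EF1a gates, here called the EF1a effect, ran in opposite directions at the 2 OSCAR levels. A gate selects cells, so this is not a response of the same cells. The fitted values of all 7 members were lower in the EF1a high population at low OSCAR and higher in it at medium OSCAR. The difference between these effects, (P3 minus P1) minus (P5 minus P4), was -7.14 ± 1.05 for Defa17 with an edgeR adjusted p of 0.00914, and it was the member called, 1 of the 6 given a test, beside 0.81% of all genes. Defa24 stood at -7.18 ± 1.44, Gm15284 at -7.78 ± 1.30, Defa5 at -7.60 ± 1.19 and Defa3 at -7.61 ± 1.60, with edgeR adjusted p-values of 0.0146, 0.0109, 0.0106 and 0.0166. Defa-ps7, with no count in P3, had an edgeR adjusted p of 0.0134, and Gm15299 stood at -8.48 ± 4.46, given without a test. DESeq2 called all 6, beside 2053 of 11048 genes. A model with the replicate number as a block called 3, beside 593 of 13706 genes. These were Defa17, Gm15284 and Defa5, with edgeR adjusted p-values of 0.00681, 0.00876 and 0.0077. Without the P2 libraries Defa17 was not called (edgeR adjusted p = 0.012). Its value was -5.87 and -7.81 without P1 replicates 2 and 1, and -5.95 and -7.80 without P5 replicates 1 and 2. When any 1 of the 10 libraries was left out, edgeR called 0 members and 0 genes, with these 6 members and 3376 to 5616 genes at an unadjusted p under 0.05.

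Other lists of cell type markers also differed between the populations, and several took another order than the members. The summed level of 7 enterocyte markers was 20348 to 31378 CPM in P1, 848 to 2188 in P2, 5791 to 9085 in P3, 4698 to 11136 in P4 and 7797 to 17437 in P5. Lymphocyte markers, 6 genes, summed to 245 to 821 CPM in P1, 10.7 to 15.9 in P2, 2.58 to 76.6 in P3, 0.926 to 3.55 in P4 and 1.26 to 5.60 in P5. P1 was thus highest for both of these lists. Goblet markers, 7 genes, summed to 2858 to 4337 CPM in P1, 34970 to 80318 in P2, 919 to 3789 in P3, 11991 to 14367 in P4 and 9889 to 10652 in P5. Enteroendocrine markers, 7 genes, summed to 72.1 to 132 CPM in P1, 1957 to 5230 in P2, 15.9 to 44.5 in P3, 515 to 733 in P4 and 226 to 446 in P5. The goblet and enteroendocrine lists were highest in P2, like the members, and unlike the members were higher in P4 and P5 than in P1. Stem cell markers, 6 genes, summed to 625 to 888 CPM in P1, 720 to 1115 in P2, 262 to 2896 in P3, 7267 to 11041 in P4 and 5757 to 10372 in P5. Tuft markers, 6 genes, summed to 37.5 to 76.0 CPM in P1, 247 to 467 in P2, 12.7 to 73.2 in P3, 70.7 to 77.0 in P4 and 40.0 to 61.0 in P5, highest in P2 with overlap among the other 4. Genes at 0 in both libraries were Il25 in P1, P3 and P4, Pou2f3 in P3, Cd3e in P2 and P4, Cd8a and Gzmb in P2, and Cd3g in P4. The part of these cell types in the defensin values was not tested.

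Within a library Lyz1, Gm15284 and Defa17 kept a nearly fixed proportion to Defa24. Lyz1 had 1081 to 1560 counts per 1000 counts of Defa24, a range of 1.44-fold over libraries in which the summed defensin level ranged 538-fold. Gm15284 had 214 to 346 counts per 1000 of Defa24, and Defa17 24.7 to 41.5. Defa5 ranged from 0.916 to 5.53 and Defa3 from 0.79 to 3.99, where the P3 and P4 libraries held 12 counts or fewer of each gene. In the P2 libraries, with far more counts, Defa3 stood at 1.52 and 3.64. Gm15299 ranged from 2.37 to 5.56 in replicate 1 and from 0 to 0.138 in replicate 2.

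Matrilysin did not keep such a proportion. Per Mmp7 count, the P1 libraries held 36.1 and 45.4 counts of the members and the P2 libraries 43.2 and 51. The values were 28.4 and 25.5 for P3 and 30 and 27.5 for P5. In P4 they had 5.28 and 15.2, a range of 9.65-fold over the 10 libraries. Both P4 libraries lay below the other 8 in defensin counts per count of the gene for the processing enzyme.

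**Figure D4:**
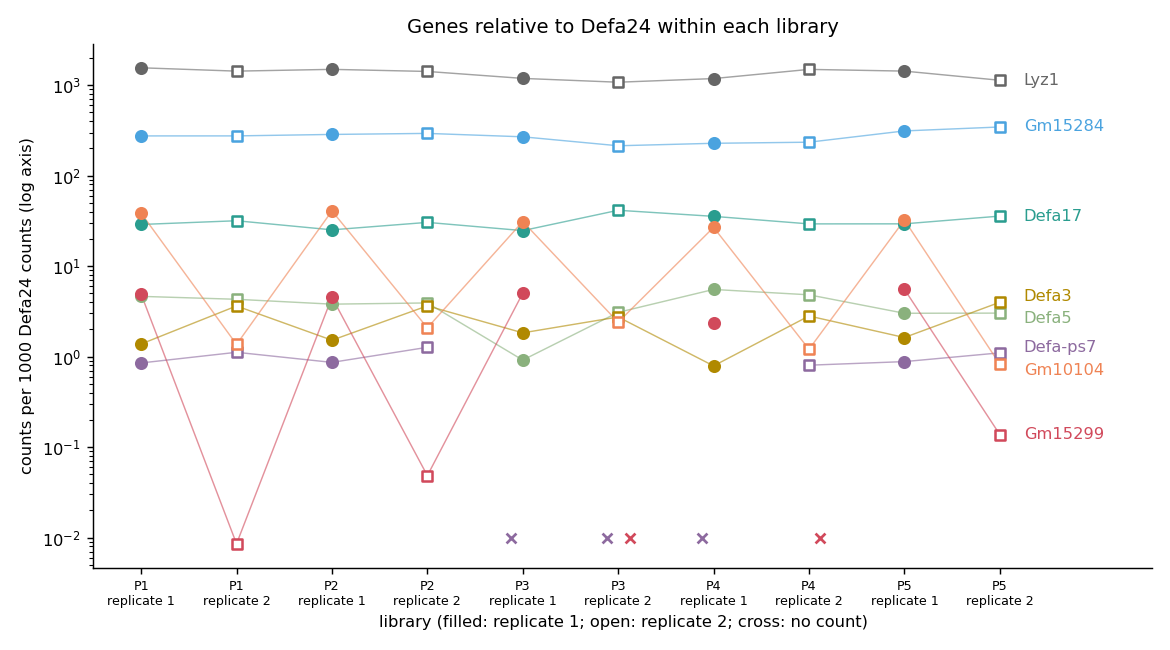
Counts of 8 genes per 1000 counts of Defa24 in each library, on a log axis. Filled circles are replicate 1, open squares replicate 2 and crosses libraries without a count, and lines only join the points of a gene. Lyz1, Gm15284 and Defa17 stay nearly level across the 10 libraries, whereas Gm15299 and Gm10104 alternate with the replicate number.

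The 8 genes outside the family most like the summed members, by Pearson's r of log2 CPM over the 10 libraries among 13679 genes, were Itln1, Clps, Lyz1, Ang4, Gm11062, Pnliprp2, Pla2g2a and Dio1, with r from 0.999 down to 0.982. The 10 libraries share their 5 populations, so these values are a description. Itln1 encodes an intelectin, Ang4 an antimicrobial ribonuclease, Clps colipase, Pnliprp2 a lipase, Pla2g2a a secreted phospholipase and Dio1 a deiodinase. Among the members r was at least 0.968 for 6 and was 0.684 for Gm15299.

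Of 12 genes listed for the Paneth granule and its secretion, 10 were tested. Between P1 and P4, 6 of them were called higher in P1 and 1 lower, with a median of 3.91, and DESeq2 called 7 higher and 1 lower. Over all genes edgeR called 23.4% in either direction and DESeq2 4528 of 13706. Lyz1 differed by 6.07 ± 1.27 (edgeR adjusted p = 0.00543), Ang4 by 6.03 ± 0.97 (0.00202), Itln1 by 5.85 ± 1.06 (0.00308) and Mmp7 by 3.75 ± 0.76 (0.00475). Kcnn4, a calcium-activated potassium channel, was the gene called lower, at -2.42 ± 0.34 (0.00134). Nod2, a sensor of bacterial cell wall fragments, stood at -0.41 ± 0.69 (0.657).

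Among 10 listed Paneth cell regulators, edgeR called 3 lower in P1 than in P4 and 0 higher, where 6 had an unadjusted p under 0.05 and DESeq2 called 3 lower and 1 higher. Over all genes edgeR called 23.4%, 51.9% had an unadjusted p under 0.05, and DESeq2 called 4528 of 13706. The counts of the regulators lay near these shares. Sox9, a transcription factor needed for Paneth cells, fell by 1.87 on the log2 scale (SE 0.29, edgeR adjusted p = 0.00182), and Atoh1, the secretory lineage factor, stood at -1.07 ± 0.35 (0.0341). Between P1 and P3 the granule list had 1 gene called higher, Ang4 at 4.35 ± 0.90 (0.00705), and 1 lower, Kcnn4 at -2.65 ± 0.35 (0.00165), where 9 of the 10 had an unadjusted p under 0.05 and DESeq2 called 8 higher and 1 lower. Of the regulators 1 was called lower, with 6 at an unadjusted p under 0.05, and DESeq2 called 2 higher and 1 lower. Over all genes edgeR called 15.6% between P1 and P3, 44.9% had an unadjusted p under 0.05, and DESeq2 called 3582 of 12908. The edgeR calls of both lists lay near that share. Neither list had a gene called between P5 and P4 or between P3 and P5 by edgeR, where 7 of the granule genes and 0 of the regulators, then 1 and 6, stood at an unadjusted p under 0.05. DESeq2 called 4 granule genes and 0 regulators in the first of these and 0 and 1 in the second. Over all genes edgeR called 0% in both, with 2.55% and 11.6% at an unadjusted p under 0.05. DESeq2 called 30 of 12643 and 40 of 13706 genes. In P2, Sox9 had 102 and 89.0 CPM, overlapping P4 at 70.9 and 93.6. Atoh1 had 93.1 and 116 in P2, against 25.7 and 25.1 in P4. Kcnn4 and Nod2 went the other way. Kcnn4 had 3.35 and 6.29 CPM in P2, against 95.7 and 146 in P4. For Nod2 the values were 0.628 and 1.10 in P2, against 6.11 and 5.55 in P4.

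Of the other 34 alpha-defensin rows, 7 had no count in any library and 19 had a mean of 1 or more in CPM: AY761184, Gm14850, Gm14851, Defa21, Defa22, Defa20, Gm10104, Gm15292, Defa26, Gm15308, Gm15315, Defa-ps6, Defa-ps18, Defa-ps4, Defa-ps1, Defa-ps16, Gm15293, Defa25 and Defa-ps10. In P2, AY761184 reached 24635 and 25230 CPM, above every member except Defa24 and Gm15284. The 7 members held 59.3% to 72.6% of the listed family's counts in each library. All 41 rows together took 23.1% and 20.2% of the counts in P2.

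Of the other rows 19 were tested, those just named except Defa25, together with Defa-ps5. Without the P2 libraries 11 passed the filter, so 8 were tested through their counts in P2. Between P1 and P4, 10 were called higher and none lower, and all 19 fitted values were above 0, with a median of 5.56. In the fit without the P2 libraries 9 of 11 were called higher, with a median of 5.89. Between P1 and P3, 2 were called by edgeR and 9 by DESeq2, with a median of 4.17, against 1 of 11 by edgeR without the P2 libraries. None was called by edgeR between P5 and P4, where 9 had an unadjusted p under 0.05, between P3 and P5, where 0 had, or in the difference of EF1a effects, where 17 had. DESeq2 called 2, 0 and 11 of them in these 3 comparisons. Over all genes edgeR called 23.4% between P1 and P4, 15.6% between P1 and P3 and 0.81% in the difference of EF1a effects. In the 3 last comparisons 2.55%, 11.6% and 34% of genes had an unadjusted p under 0.05. DESeq2 called 3582 of 12908 genes between P1 and P3, then 30 of 12643, 40 of 13706 and 2053 of 11048 in these 3.

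Beta-defensins, a related family made by many epithelia, were nearly absent. Of 42 rows only 6 had any count, 82 in all, and the highest was Defb1 with 33 and 17 counts in P2 and 7 in P5 replicate 1.

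The replicate number separated 1 member from the rest. In a model with the populations and the replicate number, examined after the counts of Gm15299 had been seen, replicate 1 exceeded replicate 2 for Gm15299 by 7.04 ± 0.24 on the log2 scale, 131-fold, with an edgeR adjusted p of 1.51e-06. It was 1 of 7 members called, beside 0.321% of all genes, and ranked 2nd of 13706 genes by p. The counts in P2, P5 and P4 that chose Gm15299 enter this comparison, so its p and rank are a description. The labels do not say what the number marks, and the study describes the replicates as biological.

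The other 6 members were not called in this comparison. Defa3 stood at -1.10 ± 0.55 with an edgeR adjusted p of 0.509, and was lower per Defa24 count in all 5 replicate 1 libraries (0.79 to 1.83 per 1000) than in any replicate 2 library (2.74 to 3.99). Defa24, Gm15284, Defa17, Defa5 and Defa-ps7 lay between -0.46 and 0.24. Among the other alpha-defensin rows 1 of 19 was called, Gm10104, at 4.60 ± 0.55 with an edgeR adjusted p of 0.00626. It had 23691 and 1205 counts in P2, 1313 and 160 in P1, 955 and 6 in P5, 68 and 7 in P3, and 34 and 3 in P4, replicate 1 first. Gm10104 has the same 105-base segment as Defa5, which stood at 0.01 ± 0.47.

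The replicate difference of Gm15299 was present in each population: replicate 1 had the higher count in all 5. It was called when the 2 libraries of any 1 population were left out. The other gene that led this comparison was Xist, which is expressed from the inactive X chromosome of female cells. It had 302 to 11185 counts in the replicate 1 libraries and 1 to 13 in those of replicate 2, while 4 Y-linked genes summed to 0 to 2 counts in replicate 1 and 580 to 1352 in replicate 2. Genes that are not sex-linked also ranked high by p. Among them were Arntl (6th, -2.39 on the log2 scale), H2-Eb1 (9th, -2.04), Cd74 (10th, -2.83) and Per3 (12th, 2.92). Sex, animal, sorting day and anything else that went with the replicate number cannot be told apart here.

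**Figure D5:**
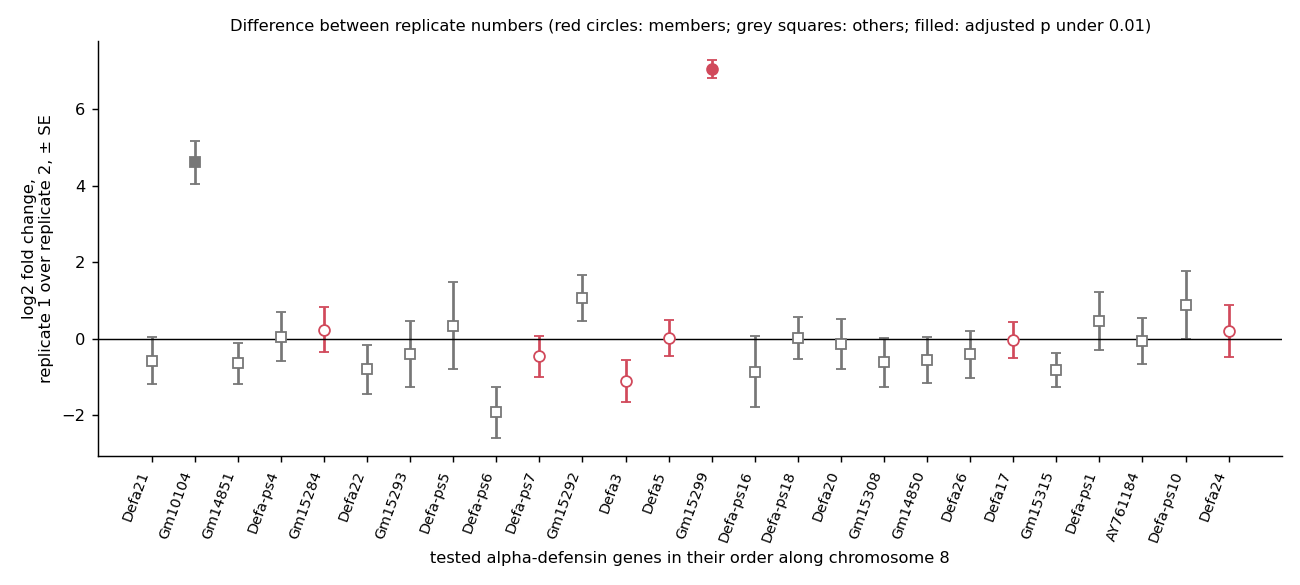
Fitted log2 fold change of replicate 1 over replicate 2, with its standard error, for 26 alpha-defensin genes tested, in their order along chromosome 8. Red circles are members and grey squares other genes, filled where the adjusted p was under 0.01. Gm15299 at 7.04 and Gm10104 at 4.60 stand above all others, which lie between -1.92 and 1.07.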

How the data were processed

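Poly-A RNA of 10000 sorted cells per library was sequenced, in 2 libraries for each of 5 populations. The authors deposited counts per gene, without normalization, made with TopHat 2.1.0 on mm9 and HTSeq-count 0.11.2 (reads checked with FastQC 0.11.5), without strand and without reads that aligned to several places, so counts of paralogs are partial. Row names were matched to GENCODE of NCBIM37 (33643 of 35006), 206 rRNA rows were removed as in the study, and a nameless row (at most 0.0006% of counts) was left out. Libraries were grouped by their deposited labels. An alpha-defensin gene is not reported here, and it was left out of the family list and its sums but kept in the fits.

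Populations were fitted with edgeR 4.0.16 (R 4.3.3): filterByExpr, TMM, 5 means over 10 libraries, the quasi-likelihood test and Benjamini-Hochberg adjustment, with calls at an adjusted p under 0.01, the study's threshold. The scripts were tested on simulated data. DESeq2 1.42.0 was an alternative, with other scaling, filters, thresholds, a replicate block and libraries left out. Levels are counts per 1000000 counts (CPM) without rRNA. Windows of 75 bases were searched exactly in the genome and family transcripts. The members, lists and tests were chosen with earlier results of these data known. Every member is named, other alpha-defensins from a mean of 1 CPM, at most 8 Paneth genes, and the 8 genes most like the sum. Depth limits a library to shares above 3 counts, 0.463 to 0.789 CPM. Python 3.11.15, pandas 2.3.3, numpy 2.4.6 and matplotlib 3.10.9 were used.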

Additional observations from a re-analysis of the deposited data

Results flagged for a closer look

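The difference of Defa17 between the EF1a gates was not the same at low and medium OSCAR. The difference of effects was -7.14 on the log2 scale (SE 1.05, edgeR adjusted p = 0.00914). A gate selects cells, so this is not a response of the same cells. At low OSCAR Defa17 had 985 and 3729 counts (P1) against 54 and 121 (P3), whereas at medium OSCAR it had 45 and 73 (P4) against 867 and 260 (P5). The result rests on the deposited label of P3. No other member passed the threshold in this model, which has no term for the replicate number. With that number as a block Defa17, Gm15284 and Defa5 passed, and without the P2 libraries no member did (Defa17 edgeR adjusted p = 0.012). Gm15299 was given no test here. Other members had fitted values as large in size, such as -7.18 ± 1.44 for Defa24 and -7.78 ± 1.30 for Gm15284. The call of Defa17 depended on every library. Its value was -5.87 without P1 replicate 2 and -7.81 without P1 replicate 1.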

How the results depend on the processing

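Of 602 fitted member values under an alternative, 507 kept both direction and side of the threshold and 4 reversed. The reversed ones came from leaving out 1 library. Over the libraries left out in turn, Gm15299 ranged from -3.42 (without P1 replicate 1) to 9.56 for P1 minus P3, from -0.56 (without P5 replicate 1) to 8.83 for P5 minus P4, and from -8.99 to 3.98 (without P5 replicate 1) for P3 minus P5. Defa24 ranged from -1.92 to 0.21 (without P5 replicate 1) for P3 minus P5. Of the 7 members, between P1 and P3 6 were called by DESeq2, 7 without the filter on low counts and 6 at an adjusted p under 0.05, against 3. Beside them these called 3582 of 12908, 4005 of 21996 and 4652 of 13706 genes. Without the filter Gm15299, at 167 and 1 counts in P1, had an edgeR adjusted p of 1.85e-34 for P1 minus P4, against 0.156 with it. Calls of the unfiltered fit thus took little account of such a difference between replicates. Between P5 and P4, against 0, DESeq2 called 3, beside 30 of 12643 genes, and the unfiltered fit 6, beside 194 of 21996. Between P3 and P5, against 0, the unfiltered fit called 4, beside 302 of 21996. For the difference of EF1a effects, against 1, DESeq2 called 6, DESeq2 size factors 3, no filter 6, an adjusted p under 0.05 6, removal of mitochondrial genes 3, and the fit without the P2 libraries 0. In the same order these called 2053 of 11048, 362 of 13706, 2298 of 21996, 2370 of 13706, 375 of 13887 and 0 of 13250 genes. With each library left out in turn, the number of members called changed between P1 and P4 and between P1 and P3. The number called over all genes changed in both as well. No member was called in the other comparisons or in the difference of EF1a effects. The cause of these changes was not tested. Same-numbered libraries correlated in their deviations by -0.06 (P2 with P3) to 0.55 (P4 with P5), with a median of 0.25 over the pairs. Not every pair correlated by over 0.1, and the labels name no shared animal or day. Xist and Y-linked counts, however, divided by the number in all populations. The main fits have no term for the number, and calls changed when it was added as a block. A replicate block called 7 members between P1 and P4, 5 between P1 and P3, 0 between P5 and P4, 0 between P3 and P5 and 3 in the difference of EF1a effects. Over all genes it called 3881, 2597, 1, 4 and 593 of 13706 in the same order. Gm15299 was left out of the member counts for P5 minus P4 and the difference of EF1a effects, since P5 minus P4 helped choose it. The summed level depended on the scaling too, as given above for P5 over P3.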
